A study of Mus musculus with 8 samples.

Results

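Cathepsins and the cystatins that restrain them were followed across 8 microglial arrays as 10 listed genes, read from the brightest array probe set of each gene symbol. The list holds 8 proteases (Ctsa, Ctsb, Ctsc, Ctsd, Ctsh, Ctsl, Ctss and Ctsz) and 2 inhibitors (Cst3 and Cstb). A probe set assigned to a single gene was found for 9 of the 10, out of 30743 named genes, and all 9 were among the 18244 genes bright enough to be tested. The probe set that carries the name Ctsd also carries a second gene, so Ctsd is listed here without a value. The members were chosen with earlier results of these data known.

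Each of the 8 groups holds 1 Affymetrix array of microglia from mice of the strain labelled C57Black/6J. The control genotype is labelled FL, or F/F in the p50 group, and its 4 groups are naive, EAE, EAE IGU and EAE p50. The other genotype, icKO, is a conditional knockout that the series title places in oligodendroglia, and it has the same 4 groups. EAE is experimental autoimmune encephalomyelitis, a T cell-driven model of multiple sclerosis, and IGU marks treatment with iguratimod, an antirheumatic drug. What p50 stands for, the driver of the knockout, the doses, the ages and the number of mice behind an array are not given in the sources used here. The control array under iguratimod is called wt in one label and FL in another, and FL was taken. Array medians lay between 243 and 269 intensity units.

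Cathepsins are proteases of lysosomes and endosomes. Most of those listed are cysteine proteases that cut proteins taken up by phagocytosis, and Ctss and Ctsl also trim the invariant chain that blocks the peptide groove of MHC class II. Cystatins are tight-binding inhibitors of cysteine cathepsins: Cst3 encodes cystatin C, which is secreted, and Cstb encodes cystatin B (stefin B), which stays in the cytosol and nucleus. In microglia, cathepsin genes are part of the resting lysosomal programme, and several of them are known to be induced in disease-associated states.

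Levels are given as log2(intensity + 16), and differences on that scale understate the change of dim genes. All 9 measured members were bright, with mean levels between the 90.8th percentile of tested genes for Ctsa and the 99.8th for Ctss and Cst3. Ctss and Cst3 were the brightest members, and both carry an identical value on several arrays. Ctss, the endopeptidase of antigen-presenting cells (chr3:95526786-95556405, GRCm38.p6), had the same intensity of 402127 on 4 of 8 arrays (icKO naive, FL EAE, icKO EAE and F/F EAE p50). Cst3 (chr2:148871722-148875512) had the same intensity of 614388 on 4 arrays (icKO naive, FL EAE, icKO EAE IGU and F/F EAE p50). Of the 666 rows of the table with a mean level of at least 18, 62.0% repeat a value on at least 2 arrays, against 0.505% of rows between 8 and 10. Among the 63 named genes at or above 18, the median range over the arrays was 0.63, and Cst3 with 0.05 had a smaller range than all but 1. The part of this repetition in the small differences of Ctss and Cst3 was not tested.

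The upstream sequences of Ctss and Cst3, the members at the top of the scale, and of Ctsz, the member with the largest p50 difference from naive, are shown to set their promoters side by side. RefSeq promoter entries (GRCm38.p6, 250 bases before to 50 after a transcript start, both strands searched) matched 7 of the 10 members, in 8 entries. Only the 250 bases before the start are printed, 5′ to 3′ on the gene's strand, with matches that lie wholly before the start in capitals, for chr3:95526536-95526785 (+), chr2:148875513-148875762 (-) and chr2:174439040-174439289 (-).
Ctss: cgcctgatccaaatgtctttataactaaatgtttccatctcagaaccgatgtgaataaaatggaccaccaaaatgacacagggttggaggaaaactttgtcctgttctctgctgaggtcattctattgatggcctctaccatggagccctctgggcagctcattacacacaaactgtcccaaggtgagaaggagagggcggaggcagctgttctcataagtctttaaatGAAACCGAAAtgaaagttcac
Cst3: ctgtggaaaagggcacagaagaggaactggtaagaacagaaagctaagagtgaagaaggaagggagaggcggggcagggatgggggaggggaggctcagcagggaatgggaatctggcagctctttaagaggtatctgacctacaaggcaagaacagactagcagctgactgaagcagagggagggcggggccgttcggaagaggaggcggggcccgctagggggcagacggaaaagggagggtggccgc
Ctsz: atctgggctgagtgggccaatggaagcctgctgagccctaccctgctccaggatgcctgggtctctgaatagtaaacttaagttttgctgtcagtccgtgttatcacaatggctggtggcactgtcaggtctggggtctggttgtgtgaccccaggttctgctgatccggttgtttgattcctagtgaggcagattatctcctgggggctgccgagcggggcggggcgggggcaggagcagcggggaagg
The capitals in Ctss mark its 1 match to GAAANNGAAA, the letters of an interferon response type element, 21 bases before the start. That pattern was held by 3.44% of the 32851 windows of this length in the table, and by none of the other members' entries. CACGTG, the E-box core found in many lysosomal gene promoters, was present in entries of Ctsa, Ctsd and Ctsl and in 7.15% of all windows. GGAAGT, the core of ETS-type sites, was present in entries of Ctsa, Ctsc and Ctss and in 23.8% of all windows, and the Ctss match runs across the start, so it is not in capitals. In the matching Ctsa entry, in Ctsc and in Ctsl the annotated start lies inside the span of the gene, so these upstream bases are not printed. A match is a description of letters and not evidence that a factor binds there.

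**Figure D1:**
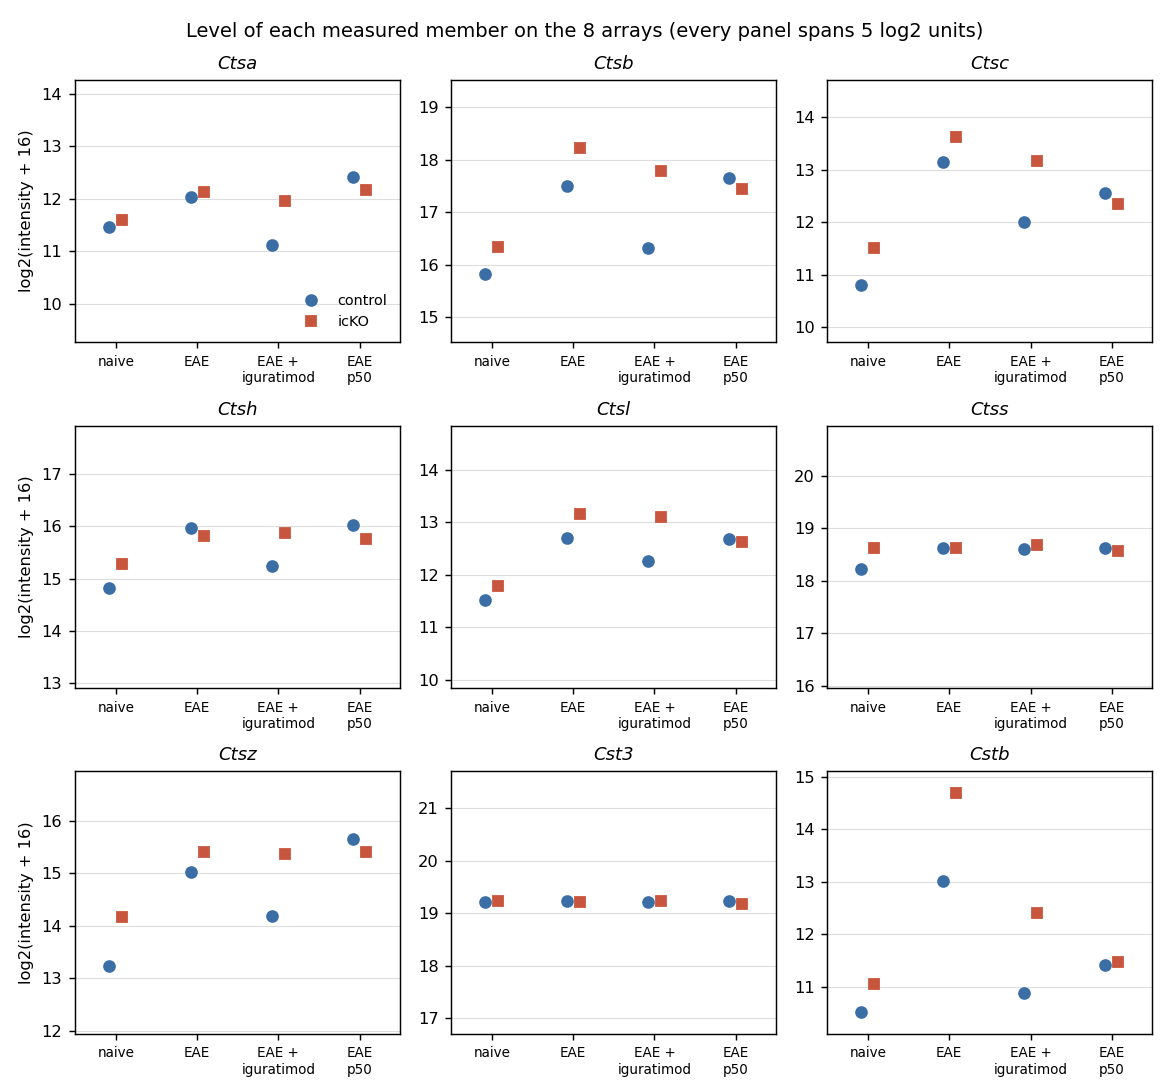
Level of each measured member, log2(intensity + 16) on the vertical axis, in the 4 states on the horizontal axis, with 1 point per array (circles control, squares icKO). Cstb spans 4.18 log2 units and peaks on the icKO EAE array, while Ctss spans 0.46 and Cst3 spans 0.05.

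In EAE, genes of both the proteases and the inhibitors were brighter than in naive microglia. The exopeptidase gene Ctsc rose 4.66-fold, the endopeptidase gene Ctsl rose 2.42-fold and the inhibitor gene Cstb rose 8.42-fold, averaged over the genotypes. The other inhibitor, Cst3, stayed within 0.05 log2 units over all 8 arrays, with an identical value on 4 of them. With limma and a model of genotype and state over the 8 arrays, 3 of 9 members passed an adjusted p of 0.05 over all tested genes, all of them higher, against 3.33% of tested genes higher and 3.72% in either direction. On both EAE arrays, 7 of 9 members were brighter than on both naive arrays, as were 29.5% of all tested genes. The median difference was 1.28 over the members and 0.01 over all tested genes.

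Cstb (chr10:78425670-78427622) had the widest response of the members. It lay at 10.51 on the FL naive array, 11.05 on icKO naive, 13.02 on FL EAE and 14.69 on icKO EAE. It was at 10.88 on FL EAE IGU, 12.41 on icKO EAE IGU, 11.42 on F/F EAE p50 and 11.47 on icKO EAE p50. The EAE arrays of both genotypes stood above the other 6, and from the dimmest to the brightest array the intensity differed 18.1-fold. Against naive, Cstb rose by 3.07 ± 0.41 (SE) in EAE (limma adjusted p = 0.0256).

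Ctsc (chr7:88278024-88315861) encodes dipeptidyl peptidase I, which activates the granule proteases of neutrophils and cytotoxic lymphocytes. Its level was 10.81 on FL naive, 11.50 on icKO naive, 13.14 on FL EAE and 13.62 on icKO EAE. Under iguratimod it stood 1.19 above the FL naive array in control, at 13.17 in icKO, and on the p50 arrays it read 12.56 and 12.34. All 6 EAE arrays, treated or not, were brighter than both naive arrays. The EAE rise was 2.22 ± 0.31 (limma adjusted p = 0.0284), and it was of like size in control (2.33) and icKO (2.11).

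Ctsl (chr13:64361890-64370772), which encodes an endopeptidase of broad lysosomal use, lay at 11.53 on FL naive, 11.79 on icKO naive, 12.71 on FL EAE and 13.16 on icKO EAE. The remaining arrays read 12.27 (FL EAE IGU), 13.10 (icKO EAE IGU), 12.68 (F/F EAE p50) and 12.62 (icKO EAE p50). As for Ctsc, the naive arrays were the dimmest 2 of the 8. Ctsl rose by 1.28 ± 0.22 in EAE (limma adjusted p = 0.0412).

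Ctsb, Ctsz, Ctsh and Ctsa had higher levels on both EAE arrays than on both naive arrays but did not pass over all tested genes. Ctsb (chr14:63122462-63145923), a lysosomal endopeptidase that can also trim carboxyl ends, read 15.83 (naive) and 17.49 (EAE) in control, and 16.34 and 18.22 in icKO, a difference of 1.77 ± 0.37 (limma adjusted p = 0.0635). Ctsz (chr2:174427494-174439039), a carboxypeptidase, read 13.23 and 15.04 in control and 14.16 and 15.41 in icKO, a difference of 1.53 ± 0.34 (limma adjusted p = 0.0764). Ctsh (chr9:90054267-90076095), an aminopeptidase, gave 0.85 ± 0.25 (limma adjusted p = 0.143), with levels of 14.81 and 15.27 in naive and 15.96 and 15.81 in EAE, control first. These 3 genes are also among the brighter members. Ctsa (chr2:164832872-164841032), the serine carboxypeptidase that protects lysosomal beta-galactosidase and neuraminidase, read 11.47 and 12.04 in control and 11.59 and 12.12 in icKO, or 0.55 ± 0.26 (limma adjusted p = 0.325).

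Ctss differed by 0.19 ± 0.15 between EAE and naive (limma adjusted p = 0.533), with a 95% interval from -0.17 to 0.56. It read 18.23 on the FL naive array and between 18.57 and 18.69 on the other 7, so that 1 array carries most of its spread. Cst3 differed by -0.00 ± 0.11, with a 95% interval from -0.28 to 0.28, and read between 19.18 and 19.23 on all arrays. Both depended on the scaling: after a further quantile normalization Ctss gave -0.47, the opposite sign, and Cst3 gave -0.32, outside that interval (limma adjusted p of 0.119 and 0.225). That setting also lowered the difference of Ctsh to 0.37 and that of Ctsa to 0.31.

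Set beside the proteases, the EAE difference of Cstb was above that of each of the 7 measured proteases in both genotypes. In control, Cstb differed by 2.51 and the proteases by a median of 1.18, from 0.39 for Ctss to 2.33 for Ctsc. In icKO, Cstb differed by 3.64 and the proteases by a median of 1.25, from 0.00 for Ctss to 2.11 for Ctsc. The 0.00 of Ctss comes from an identical intensity on the icKO naive and icKO EAE arrays. Cst3 also repeats a value on 4 of 8 arrays, and the part of this repetition in these differences was not tested. In control all 7 proteases ran in the direction of Cstb, and in icKO 6 of 7 did, with Ctss at 0.00. Cst3 differed by 0.02 in control and -0.02 in icKO. No test compared the inhibitors with the proteases. In control 6 of 9 members were at least 2-fold brighter in EAE, against 4.59% of tested genes, and in icKO 5 of 9, against 4.72%.

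The EAE calls rest on each of the naive and EAE arrays: without FL naive, icKO naive, FL EAE or icKO EAE, 0 of 9 members and 0 of all tested genes passed (limma adjusted p from 0.105 to 0.138 for Cstb). The call of Ctsl was also lost without either p50 array (adjusted p = 0.0582), with no filter on dim genes (0.0568) and with a trended robust prior (0.0577). After a further quantile normalization 1 member passed (Cstb) and 205 genes in all, against 678.

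Markers of blood leukocytes moved with the same arrays. The summed intensity of 10 neutrophil markers, on a log2 scale, was 14.62 and 12.55 on the naive arrays and 19.78 and 16.65 on the EAE arrays (control first). The sum of 9 monocyte markers was 11.79 and 11.46 in naive and 14.73 and 14.78 in EAE. In EAE against naive, 8 of 8 tested neutrophil markers and 8 of 8 tested monocyte markers were higher, and 0 and 3 passed. The sum of 9 microglia markers was 18.96 and 19.11 in naive and 18.96 and 18.72 in EAE, and 0 of 9 passed, with 1 of 9 higher on average. Between the EAE arrays Cstb was the brighter by 1.67 in icKO, where the neutrophil sum was the lower and the monocyte sums were nearly alike. Single monocyte markers parted within that pair, Fn1 reading 9.57 in control and 12.05 in icKO, and Ly6c2 14.27 and 13.96. Over the 8 arrays the Pearson correlation with the monocyte sum was 0.91 for Cstb, 0.91 for Cst7 and 0.84 for Ctsc, and with the neutrophil sum 0.62, 0.66 and 0.58. For the other measured members it ran from 0.12 (Cst3) to 0.73 (Ctsl) with the monocyte sum, and from 0.03 (Ctsa) to 0.47 (Ctsl) with the neutrophil sum. These values are descriptions of points that share states and normalization. In bulk RNA, a changed share of leukocytes cannot be told apart from changed RNA per cell, and the part of these markers in the EAE differences was not tested. The microglia sum is carried mostly by Cx3cr1, which lay between 18.15 and 18.43, and Sall1 lay between 12.53 and 13.59. Other microglia markers were dimmer in EAE: Gpr34 gave -1.48 ± 0.28 and Fcrls -1.31 ± 0.28 (limma adjusted p of 0.0512 and 0.0703), and both were lower in each genotype. None of 4 tested lymphocyte markers passed in any of the 5 state comparisons. Summed oligodendrocyte, astrocyte, neuron and endothelial markers stayed between 9.70 and 11.14, but most of these markers were too dim to be tested. Those bright enough were 1 of 6 oligodendrocyte, 3 of 7 astrocyte, 0 of 6 neuron and 1 of 6 endothelial markers.

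**Figure D2:**
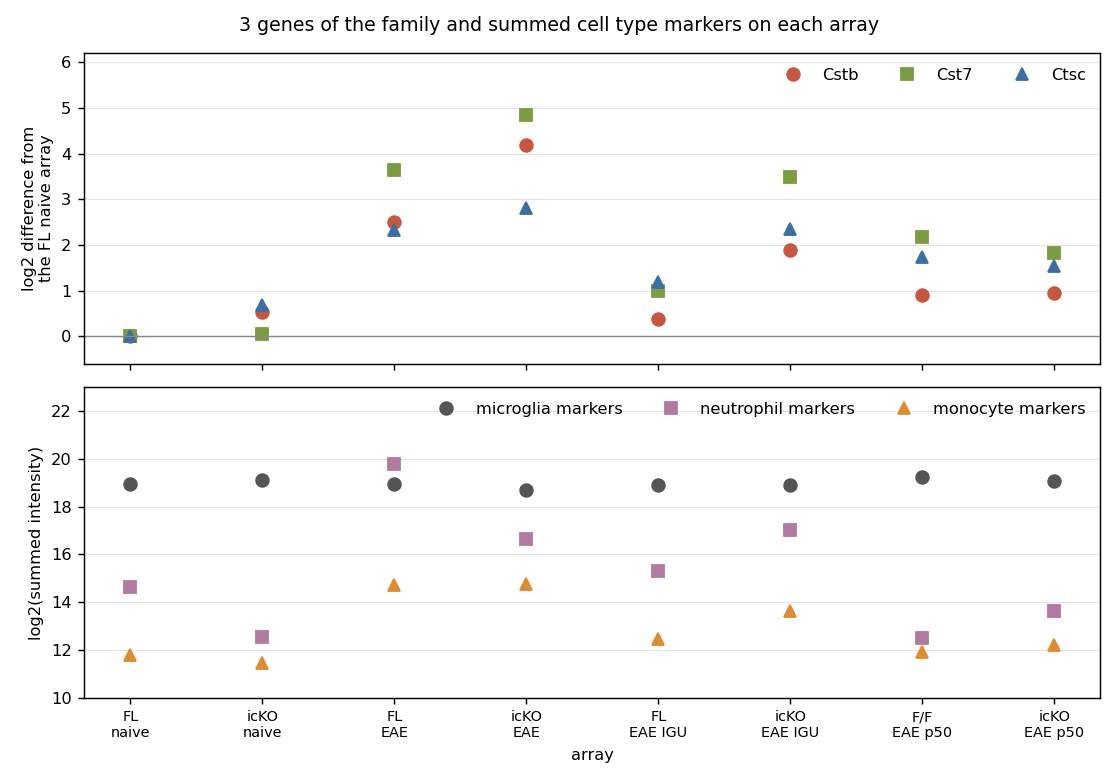
Upper panel: log2 difference of Cstb, Cst7 and Ctsc from the FL naive array on each of the 8 arrays (1 point per array). Lower panel: log2 of the summed intensity of microglia, neutrophil and monocyte markers on the same arrays. The neutrophil sum is highest on FL EAE (19.78), while Cstb (4.18 above FL naive) and the monocyte sum (14.78) are highest on icKO EAE.

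Other genes of the pathway were read from 6 lists of 53 genes, 47 of them measured. In EAE against naive, 3.33% of tested genes passed with a higher level, and the median difference over all tested genes was 0.01. Of 6 further cystatin and stefin genes tested, all 6 were higher in EAE on average, with a median difference of 0.50, and 1 passed. This was Cst7, which encodes cystatin F, an inhibitor that acts inside the endolysosome and targets the protease made by Ctsc. Cst7 lay at 8.85 and 8.88 on the naive arrays, 12.48 and 13.69 on the EAE arrays, 9.83 and 12.33 under iguratimod and 11.03 and 10.68 on the p50 arrays, control first. The naive arrays were alike, and each of the other 6 was brighter. It rose by 4.22 ± 0.66 in EAE (limma adjusted p = 0.0331), more than any of the 9 members. None of 5 further cathepsins (Ctse, Ctsf, Ctsg, Ctso and Ctsw) passed in any of the 8 comparisons fitted, and their median EAE difference was -0.09. Ctsg, a serine protease of neutrophil granules, lay between 7.90 and 8.66. None of 7 tested inhibitors of other families passed either.

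All 12 tested genes of cathepsin activation and sorting were higher in EAE on average, with a median difference of 0.33, against 0.01 over all tested genes. Of the 12, 1 passed, against 3.33% of tested genes passing with a higher level. The gene that passed was Gnptab, a subunit of the enzyme that starts the mannose 6-phosphate tag of lysosomal hydrolases, at 1.83 ± 0.18 (limma adjusted p = 0.0198). The mannose 6-phosphate receptor gene M6pr gave 1.02 ± 0.25 (limma adjusted p = 0.0996), and Lgmn, the asparaginyl endopeptidase that processes cathepsins, gave 0.22 ± 0.15 (limma adjusted p = 0.488). Among 5 tested substrates and class II partners, 4 rose: the thiol reductase gene Ifi30 10.8-fold, the class II loading genes H2-DMb1 3.33-fold and H2-DMa 2.83-fold, and the amyloid precursor gene App 1.99-fold, with limma adjusted p of 0.0148, 0.0193, 0.0307 and 0.0263. None of the 4 transcription factors listed for lysosomal genes passed, and Tfeb, their best-known member, gave -0.09 ± 0.11. These calls too were lost without any 1 of the naive and EAE arrays, and those of Cst7 and App also without either p50 array (limma adjusted p of 0.0555 and 0.0638). Quantile normalization ended the calls of Cst7 (adjusted p = 0.0562) and H2-DMa (0.0642), and testing with no filter that of Cst7 (0.0526).

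Iguratimod-treated EAE was compared with untreated EAE next. No member passed (0 of 9, against 0% of tested genes). limma called 0 of 18244 genes, with 1552 at an unadjusted p under 0.05, 2 of them members. Cstb was 2.13 lower in control and 2.29 lower in icKO on the treated array, and the fit gave -2.21 ± 0.41 (unadjusted p = 0.00181, limma adjusted p = 0.508). Both treated arrays were dimmer than both untreated ones for Cstb and Ctsa, as for 18.9% of tested genes. Ctsc gave -0.80 ± 0.31, Ctsb -0.80 ± 0.37, Ctsa -0.54 ± 0.26, Ctsz -0.44 ± 0.34, Ctsh -0.34 ± 0.25 and Ctsl -0.25 ± 0.22, with limma adjusted p between 0.575 and 0.809. Ctss and Cst3 gave 0.03 ± 0.15 and 0.00 ± 0.11.

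The 2 genotypes were read separately for the proteases under iguratimod. In control, all 7 proteases were dimmer on the treated array, with a median of -0.84 from -0.01 (Ctss) to -1.17 (Ctsb). In icKO, 5 of 7 were dimmer, with a median of -0.06 from 0.07 (Ctss) to -0.45 (Ctsc). The difference of Cstb lay below all 7 in both genotypes. At least 2-fold dimmer members numbered 3 of 9 in control (Ctsb, Ctsc and Cstb, against 1.7% of tested genes) and 1 of 9 in icKO (Cstb, against 1.52%). The difference between the genotypes was tested with 1 residual degree of freedom, and 0 of 9 members and 0 of all tested genes passed, with 1525 genes at an unadjusted p under 0.05. It was 0.77 ± 0.32 for Ctsa, 0.74 ± 0.45 for Ctsb, 0.80 ± 0.66 for Ctsz and -0.15 ± 0.36 for Cstb, with limma adjusted p of 0.60, 0.671, 0.744 and 0.919. From EAE to iguratimod the neutrophil sum read 19.78 and then 15.28 in control, and 16.65 and 17.01 in icKO. The monocyte sum read 14.73 and 12.44 in control, and 14.78 and 13.61 in icKO. The part of these markers was not tested.

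Against naive, both treated arrays were brighter than both naive arrays for Ctsc, Ctsl and Ctsz, as for 20.7% of tested genes, and 0 of 9 members passed (0.00548% of tested genes did). Ctsc gave 1.42 ± 0.31, Ctsl 1.03 ± 0.22, Ctsz 1.09 ± 0.34 and Cstb 0.86 ± 0.41, with limma adjusted p of 0.219, 0.212, 0.332 and 0.543. Relative to the naive array of its genotype, Cstb was 0.37 higher in control and 1.36 higher in icKO. The comparisons with EAE and with naive share arrays, so their values are not independent.

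**Figure D3:**
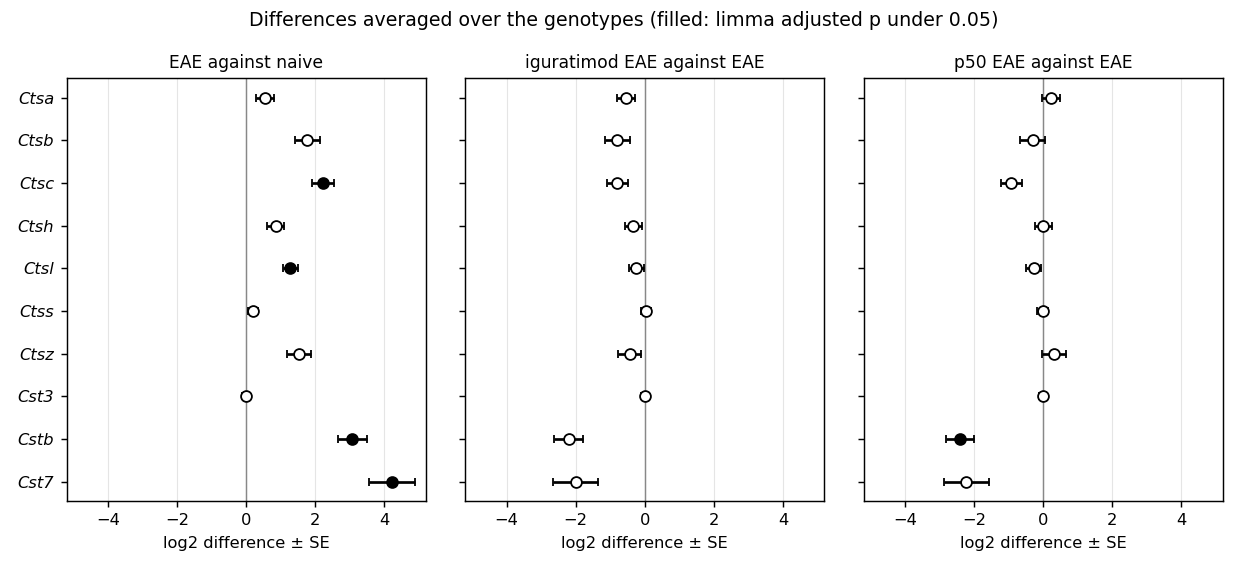
Log2 difference (point) with its standard error (bar) for the 9 measured members and Cst7 in EAE against naive, iguratimod EAE against EAE and p50 EAE against EAE, from limma over 8 arrays. Filled points passed an adjusted p of 0.05: Ctsc, Ctsl, Cstb and Cst7 on the left, and Cstb at -2.41 on the right.

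The EAE p50 pair was set against the untreated EAE pair. Cstb fell by 2.41 ± 0.41 (limma adjusted p = 0.0464), the 1 member of 9 that passed, and the difference was -1.60 in control and -3.23 in icKO. Of all tested genes, 2.7% passed, and 1.62% passed with a lower level. Cstb was at 11.42 and 11.47 on the p50 arrays, against 10.51 and 11.05 on the naive arrays, control first. The call was lost when any 1 of the 8 arrays was left out (limma adjusted p from 0.0620 to 0.282) after a further quantile normalization (adjusted p = 0.0542) and with no filter on dim genes (adjusted p = 0.0684).

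No protease passed in this comparison. Ctsz, Ctsa, Ctsh, Ctss, Ctsl and Ctsb gave 0.31 ± 0.34, 0.22 ± 0.26, -0.01 ± 0.25, -0.02 ± 0.15, -0.28 ± 0.22 and -0.30 ± 0.37, with limma adjusted p between 0.536 and 0.993. Ctsc was dimmer on both p50 arrays than on both EAE arrays, at -0.93 ± 0.31 (limma adjusted p = 0.180), and so were Ctsl and Cstb, as were 30.9% of tested genes. Ctsa was brighter on both, as were 26.4%. In both genotypes the change of Cstb was below that of all 7 proteases. Cst7 gave -2.23 ± 0.66 (limma adjusted p = 0.141), and Ifi30 fell by 2.22 ± 0.25 (limma adjusted p = 0.0166), a call lost without any 1 of the EAE and p50 arrays. Of the leukocyte markers, 1 of 8 monocyte markers and 0 of 8 neutrophil markers passed, against 2.7% of tested genes, with every one of these markers lower on average. Of 9 microglia markers, 8 were higher on average, with a median difference of 0.88, and 1 of them passed. The neutrophil sums on the p50 arrays were 12.50 and 13.61 and the monocyte sums 11.89 and 12.20. The microglia sums were 19.23 and 19.08 on the p50 arrays, against 18.96 and 18.72 on the EAE arrays, control first. The p50 arrays also read Xist, the RNA of X inactivation, at 15.90 and 16.64, against 7.71 to 8.30 on the other 6 arrays. Sex-linked differences and p50 cannot be told apart in these comparisons.

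Against naive, the p50 arrays were brighter in 7 of 9 members on both arrays (31.6% of tested genes), and 0 of 9 passed, against 0.795% of tested genes. Ctsz came closest at 1.84 ± 0.34 (limma adjusted p = 0.0756), with levels of 15.66 and 15.41, and Ctsl gave 0.99 ± 0.22 (adjusted p = 0.0965). Ctsb, Ctsc, Ctsh and Ctsa gave 1.47 ± 0.37, 1.29 ± 0.31, 0.84 ± 0.25 and 0.77 ± 0.26, and Cstb gave 0.66 ± 0.41 (limma adjusted p = 0.417). Relative to naive, the protease median was thus 1.20 in control and 0.83 in icKO, above Cstb at 0.91 and 0.42, the reverse of the order in EAE. That reversal was not tested. The same order was seen under iguratimod relative to naive in control (protease median 0.49, Cstb 0.37), but not in icKO (1.21 and 1.36). Cst7, at 2.18 and 1.80 on the p50 arrays relative to naive, stayed above the protease median. Of the other pathway genes, Gnptab rose by 1.29 ± 0.18 (limma adjusted p = 0.0496) and H2-DMb1 by 1.57 ± 0.16 (limma adjusted p = 0.0181) on the p50 arrays, and both calls were lost without any 1 of the naive and p50 arrays. That of Gnptab was also lost without any 1 of the other 4 arrays and with no filter (adjusted p = 0.0636).

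Averaged over the 4 states, 8 of 9 members were brighter in icKO than in control, and none passed. The median difference was 0.37 over the members and -0.02 over all tested genes. In the single states, between 45.1% and 47.9% of tested genes were brighter in icKO. limma called 0 of 9 members and 0% of tested genes for genotype, with 991 genes at an unadjusted p under 0.05. Cstb gave 0.95 ± 0.29 (unadjusted p = 0.0178, limma adjusted p = 0.882) and was higher in icKO in 4 of 4 states, as were 4.9% of tested genes. The proteases Ctsb, Ctsz, Ctsc and Ctsl gave 0.62 ± 0.26, 0.56 ± 0.24, 0.53 ± 0.22 and 0.37 ± 0.15, all with a limma adjusted p of 0.882. Each was higher in icKO in 3 of 4 states, a count whose share over all tested genes is not given here. Ctsa, Ctsh, Ctss and Cst3 gave 0.20 ± 0.18, 0.17 ± 0.18, 0.11 ± 0.11 and -0.01 ± 0.08.

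State by state, the genotype pairs pointed both ways. In naive, 9 of 9 members were brighter in icKO, against 47.9% of tested genes, and the largest difference was that of Ctsz (0.94), followed by Ctsc (0.69) and Cstb (0.54). In EAE 6 of 9 were brighter, against 47.8%, with Cstb at 1.67 and Ctsb at 0.73, while Ctsh was at -0.15. Under iguratimod 9 of 9 were brighter, against 47.6%, and 4 of them at least 2-fold (against 1.27% of tested genes): Cstb by 1.52, Ctsb by 1.46, Ctsz by 1.18 and Ctsc by 1.16. On the p50 arrays 1 of 9 was brighter, against 45.1%, and the proteases ran from -0.26 (Ctsh) to -0.05 (Ctss) with Cstb at 0.05. The change from naive to EAE differed between the genotypes most in Cstb, by 1.13 ± 0.72 (limma adjusted p = 0.957, 1 residual degree of freedom), and 0 of 9 members and 0 of all tested genes passed that test, with 1135 genes at an unadjusted p under 0.05. Each state pair is 1 array against 1 array, so these differences have no replicate check.

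**Figure D4:**
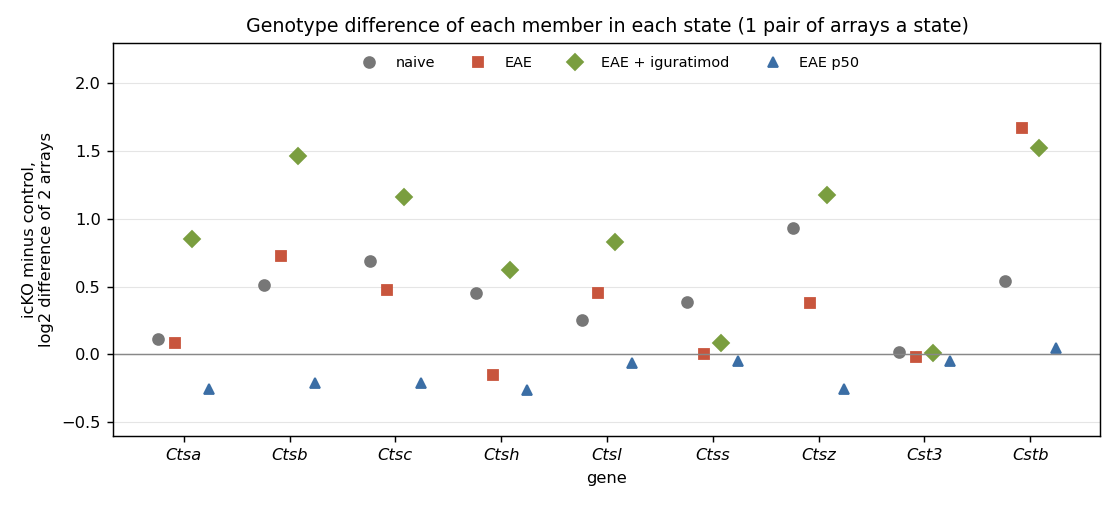
Difference between the icKO and the control array (log2, vertical axis) for each measured member in the 4 states, 1 pair of arrays per point. All points of the naive and iguratimod pairs lie above 0, with Ctsb at 1.46 and Cstb at 1.52 under iguratimod, and 8 of the 9 p50 points lie below it.

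Across the 8 arrays the measured proteases followed each other more closely than they followed Cst3. Pearson correlations of Ctss were 0.35 (Ctsa) to 0.75 (Ctsz) with the other proteases and 0.26 with Cst3. The Pearson correlation of Cstb with the proteases ran from 0.45 (Ctss) to 0.88 (Ctsc), and with Cst3 it was 0.04. These points share arrays, states and normalization, and the values are descriptions. Of 3269 bright protein-coding genes outside chromosomes X and Y, those most like Cstb were Tgfbi (0.99), Ndufv3 (0.99) and Capg (0.99). For Ctsb they were Clec7a, Hif1a and Fth1 (0.99 each), for Ctsl Ly9 (0.98), M6pr (0.98) and H2-K1 (0.97), and for Ctsc the ribosomal protein genes Rpl4, Rpl8 and Rpl12 (0.99 each). Abca1 was the gene most like Ctsa (0.99), Il10rb most like Ctsh (0.99) and Gpr108 most like Ctsz (0.99). The gene most like Ctss was Uqcrc2 (0.97), and no gene exceeded 0.95 for Cst3, whose closest was the mitochondrial gene COX1 (0.92). For the other members many genes exceeded 0.95: 75 for Ctsc, 52 for Ctsb, 46 for Ctsa and 43 for Ctsh. The counts were 39 for Ctsz, 32 for Cstb, 26 for Ctsl and 5 for Ctss, so the named genes are not the only close ones.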

How the data were processed

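RNA of microglia was hybridised to 8 Affymetrix arrays, 1 per group. Per the submitters' processing notes, the authors used Affymetrix Expression Console. The deposited values are linear intensities, 1 per probe set, judging by their range. The summary and normalization steps are not stated in the sources used. Rows were named through the platform annotation and RefSeq (GRCm38.p6): of 65956 rows, 31216 carried 1 gene (612 of them by aliases of 1 gene), 1534 several and 33206 none used here. The brightest probe set stood for a gene, values were analysed as log2(intensity + 16), and genes above the 50th percentile of named probe sets on 1 or more arrays were tested.

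The test was limma (version 3.58.1, R 4.3.3) with state and genotype as additive terms (3 residual degrees of freedom, prior SD 0.16) and Benjamini-Hochberg adjustment over 18244 genes at 0.05. The p-values rest on how far the arrays depart from additivity, which includes any genotype effect that depends on state, and 8 arrays give limited precision. Single pairs of arrays were not tested. The members and lists were chosen with earlier results of these data known. Named genes were all members, pathway genes that passed or differed by at least 1 log2 unit one way in both genotypes (others are named as examples chosen after their values were seen), and for likeness the 3 genes with the highest correlation above the 60th percentile of brightness. Alternatives were a further quantile normalization, median centring, other filters, a pseudocount of 1, the mean of probe sets, a trended robust prior and arrays left out. No table of protein sequences was used here. The gene deleted in icKO is not reported here.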

Additional observations from a re-analysis of the deposited data

Results flagged for a closer look

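In the comparisons of states whose genotype difference was not tested, 6 changes differed in direction between the genotypes, with 1 pair of arrays in each. The share of all tested genes that differed in this way is not given here, and some of the 6 rest on values near 0. Ctsa in iguratimod EAE against naive was at -0.36 in control and 0.37 in icKO, a difference of 0.73. Against naive on the p50 arrays, Ctss was at 0.39 and -0.05 (a difference of -0.43) and Cst3 at 0.02 and -0.05 (-0.060). In p50 EAE against EAE, Ctsb was at 0.16 and -0.77 (-0.94), Ctsz at 0.63 and -0.01 (-0.63) and Ctsh at 0.05 and -0.06 (-0.11). Directions also differed in comparisons whose genotype difference was tested, where 0 of 9 members passed. These were Ctsh (-0.72 and 0.05), Ctss (-0.01 and 0.07) and Cst3 (-0.01 and 0.02) in iguratimod EAE against EAE. The last was Cst3 in EAE against naive (0.02 and -0.02).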

How the results depend on the processing

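With 1 array a group the spread comes from how far state and genotype fail to add up, and neither depth nor detection calls are known. No paired analysis was possible because each group holds 1 array and the labels give no replicate numbers to serve as a block beyond genotype. A further quantile normalization left 205 genes and 1 member passing in EAE against naive and 0 members in p50 EAE against EAE. It turned the sign of Ctss in EAE against naive (-0.47), in iguratimod EAE against naive (-0.17), in p50 EAE against naive (-0.17) and in p50 EAE against EAE (0.30). It also turned Ctsa (-0.067) and Cst3 (-0.081) in iguratimod EAE against naive, Ctsh (0.29) and Cst3 (0.23) in p50 EAE against EAE, the genotype difference of the EAE change for Ctsb (-0.17) and Ctsl (-0.064), and that of the iguratimod change for Ctss (-0.062) and Cstb (0.0032). Centring on the median turned Cst3 in EAE against naive (0.049), iguratimod EAE against EAE (-0.041), p50 EAE against naive (0.051), p50 EAE against EAE (0.0016) and icKO against control (0.022), and also Ctss in iguratimod EAE against EAE (-0.013) and Ctsh in p50 EAE against EAE (0.0094). It gave 392 genes in p50 EAE against naive, against 145.

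With no filter 0 members passed in p50 EAE against EAE, and the calls of Ctsl (adjusted p = 0.0568) and Cst7 (0.0526) in EAE against naive and of Gnptab (0.0636) in p50 EAE against naive were lost. With a 70th percentile filter (11447 genes) 5 members passed in EAE against naive, 1 in p50 EAE against naive (Ctsz), 370 genes in p50 EAE against naive, 3 genes in iguratimod EAE against naive and 14 genes for the difference in EAE change between genotypes, for which a trended robust prior gave 19 genes. Without both p50 arrays 231 genes passed in EAE against naive and 0 in iguratimod EAE against naive, and Cst3 in icKO against control was 0.0025.

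With 1 array left out, EAE against naive gave 0 to 605 genes and 0 to 4 members, p50 EAE against naive 50 to 221 genes, p50 EAE against EAE 65 to 426 genes and 0 members, and iguratimod EAE against naive 0 genes. Values that turned sign were those of Cst3 in EAE against naive (-0.017 to 0.016), iguratimod EAE against EAE (-0.0084 to 0.016), iguratimod EAE against naive (-0.013 to 0.020), p50 EAE against naive (-0.039 to 0.0089), p50 EAE against EAE (-0.038 to 0.0097) and icKO against control (-0.018 to 0.0025). Ctss turned in iguratimod EAE against EAE (-0.039 to 0.10), p50 EAE against naive (-0.016 to 0.36) and p50 EAE against EAE (-0.12 to 0.078), and Ctsa in iguratimod EAE against naive (-0.43 to 0.44), p50 EAE against EAE (-0.084 to 0.52) and icKO against control (-0.017 to 0.35). Ctsl turned in iguratimod EAE against EAE (-0.56 to 0.056) and p50 EAE against EAE (-0.57 to 0.0018), and Ctsb (-0.86 to 0.25), Ctsh (-0.29 to 0.28) and Ctsz (-0.23 to 0.85) in p50 EAE against EAE. The cause of these changes was not tested. Ctsc, Ctsl and Cstb kept a positive EAE difference under every setting run.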
